A study of Mus musculus with 4 samples.

Results

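Chemokines and their receptors were followed across 4 single-cell RNA libraries of sorted mouse vessel progenitor cells. The 58 genes are all those whose symbol in the feature table is Ccl, Cxcl, Cx3cl, Xcl, Ccr, Cxcr, Cx3cr or Xcr followed directly by a number, out of 31017 gene symbols. They comprise 39 ligands and 19 receptors. Members follow from their symbols and not from their values, though the rule was set with earlier results of these data known. The cells came from C57BL/6 mice and were sorted from lung or fat as CD45-, Ter119- and Tie2+, so that every group shares this leukocyte- and erythroid-depleted, Tie2-positive gate. Population P1 was in addition CD31+, PDGFRa-, CD105high and Sca1low, and population P2 was CD31-, PDGFRa+, CD105low and Sca1high. The groups are lung P1, fat P1, lung P2 and fat P2, with 1 library each. The age, sex and number of the animals are not given in the sources used here. With 1 library per group there is no replicate check, and the differences below describe these libraries and not the conditions.

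Chemokines are small secreted or membrane-anchored proteins that bind G protein-coupled receptors and steer the migration of leukocytes and other cells. Vessel walls and the stroma around them present chemokines on heparan sulphate, which lets blood cells stop and leave the vessel. Some members are made at rest, among them Cxcl12, Ccl21a and Cxcl13, while others, among them Cxcl1, Ccl2 and Cxcl10, are known for induction by inflammatory signals.

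Levels are UMIs (unique molecular identifiers, counts of captured transcripts) of a gene scaled to 1000000 UMIs of the library (CPM). They were summed over barcodes with 1000 or more UMIs, 500 or more genes and no more than 10% mitochondrial UMIs. This left 652 barcodes with 1118642 UMIs in the P1 library labelled lung, 1948 with 6510236 in the P1 library labelled fat, 1436 with 3880015 in lung P2 and 7898 with 43599072 in fat P2. Intervals are exact 95% intervals (Poisson for CPM, Clopper-Pearson for shares) and cover counting error only. The defining endothelial genes stood at 20 CPM or more for 7 of 7 in both P1 libraries, and the fibroblast genes for 6 of 6 in both P2 libraries. Fibroblast genes also did so for 5 of 6 in the P1 library labelled lung (900.2 CPM summed, against 11012 CPM in lung P2), and endothelial genes, at 7682 CPM summed in that P1 library against 426 CPM in lung P2, did so for 5 of 7 in lung P2. The tissue labels of the P1 libraries went against 3 tissue genes. Fabp4, a fatty acid carrier of fat vessels, stood at 12379 CPM in the P1 library labelled lung, 94.2 CPM in the one labelled fat, 16.5 CPM in lung P2 and 89.2 CPM in fat P2. Foxf1, a transcription factor of lung mesenchyme and lung vessels, stood at 3.58 CPM in P1 labelled lung, 716 CPM in P1 labelled fat, 63.9 CPM in lung P2 and 0.367 CPM in fat P2. Sftpc, the surfactant protein of alveolar epithelium, was absent from the P1 library labelled lung (0 UMIs) and stood at 738 CPM in the P1 library labelled fat. The P1 libraries are therefore named by their labels throughout, as P1 labelled lung and P1 labelled fat. Before filtering, 1 to 54 cell barcodes were shared between any 2 libraries, and at most 1 after it.

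Of the 58 genes, 47 had at least 1 UMI in some library and 11 had none anywhere. At 20 CPM or more in at least 1 library stood 16 genes, namely 14 ligands and 2 receptors. The P1 library labelled lung held UMIs of 27 of the 58, the P1 library labelled fat of 37, lung P2 of 29 and fat P2 of 39. Ligand transcripts together reached 2365 CPM in the P1 library labelled lung, 880.0 CPM in the one labelled fat, 1034 CPM in lung P2 and 1599 CPM in fat P2. Receptor transcripts together were far scarcer, at 61.7 CPM in P1 labelled lung, 63.4 CPM in P1 labelled fat, 18.3 CPM in lung P2 and 9.11 CPM in fat P2.

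**Figure D1:**
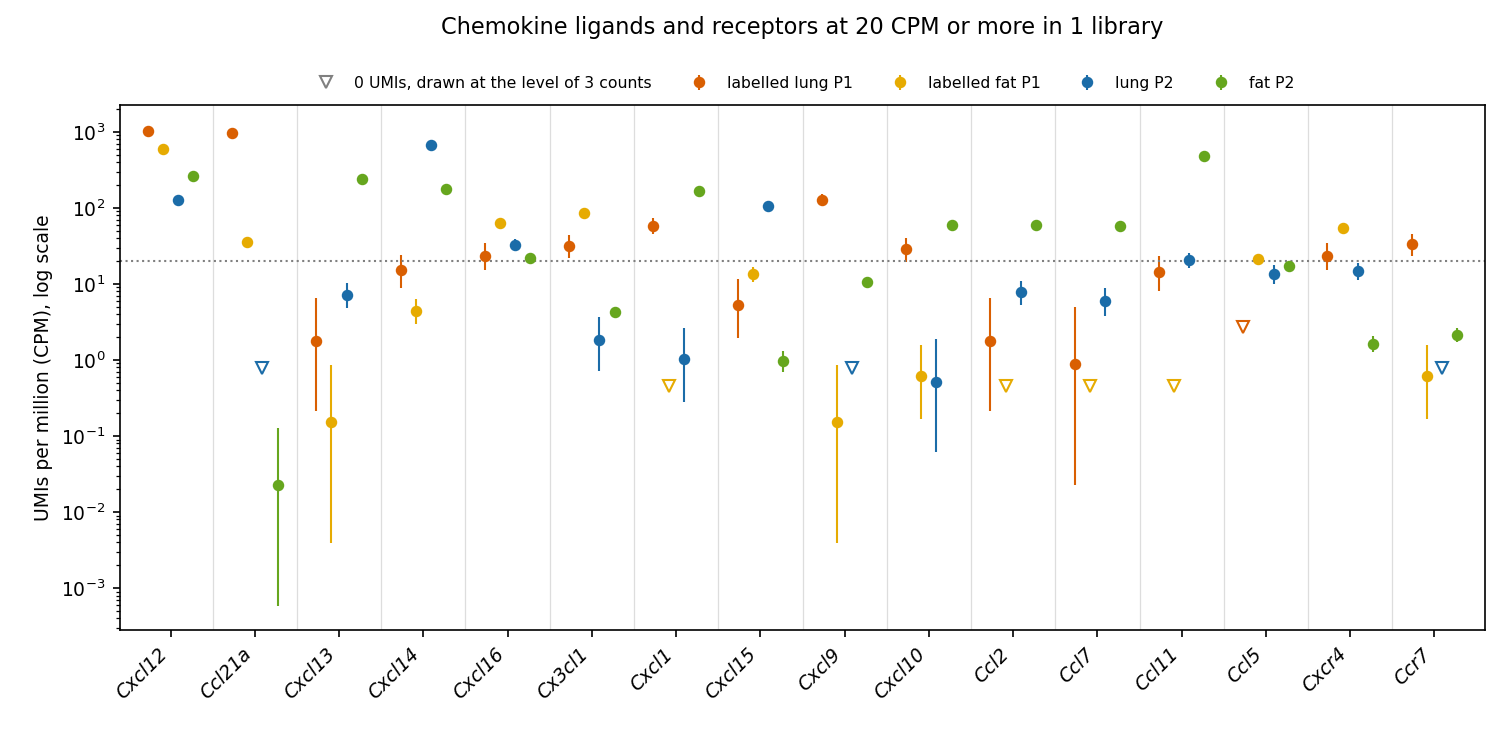
CPM on a log axis (vertical) of the 14 ligands and 2 receptors that reached 20 CPM (dotted line) in at least 1 of the 4 libraries, each with its exact 95% Poisson interval; open triangles mark 0 UMIs and are drawn at the level of 3 counts. Cxcl12 was at 125 CPM or more in all 4 libraries, whereas Ccl21a was at 969 CPM in the P1 library labelled lung and had 0 UMIs in lung P2.

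Each library had its own leading ligand or pair of ligands. Within P1 labelled lung, Cxcl12 made up 43.6% of ligand UMIs (41.7 to 45.5) and Ccl21a 41.0% (39.1 to 42.9). The P1 library labelled fat was led by Cxcl12 alone with 68.2% (67.0 to 69.4), followed by Cx3cl1 with 9.86% and Cxcl16 with 7.10%. In such sums, fewer cells of a kind and less RNA per cell cannot be told apart. Cxcl14 supplied 64.9% of ligand UMIs in lung P2 (63.4 to 66.3), ahead of Cxcl12 with 12.1% and Cxcl15 with 10.2%. Fat P2 was the most evenly divided, with 30.4% Ccl11, 16.2% Cxcl12, 14.9% Cxcl13 and 11.04% Cxcl14.

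**Figure D2:**
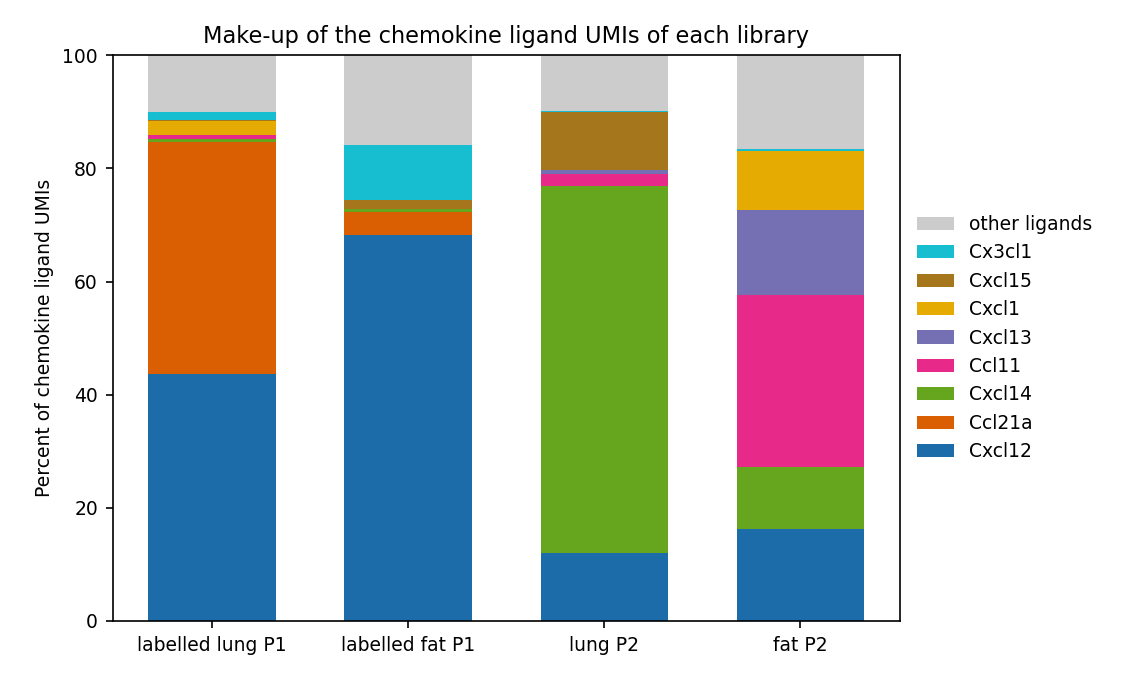
Percent of all chemokine ligand UMIs (vertical) taken by 8 ligands and by the remaining ligands together in each library. Cxcl12 fills 68.2% of the bar of the P1 library labelled fat, Cxcl14 64.9% of that of lung P2, and no ligand exceeds 30.4% in fat P2.

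Cxcl12, the ligand of Cxcr4 that retains progenitor cells and guides growing vessels, was the member found at a high level in every library (mm10 chr6:117168535-117181367, plus strand). It stood at 1032 CPM (973 to 1093) in the P1 library labelled lung, 600.1 CPM (581 to 619) in the one labelled fat, 125 CPM (114 to 137) in lung P2 and 259.6 CPM (255 to 264) in fat P2. Both P1 libraries were above both P2 libraries. A UMI of Cxcl12 was found in 73.5% of barcodes of the P1 library labelled lung, 45.1% of the P1 library labelled fat, 13.9% of lung P2 and 44.8% of fat P2. Because depth differs, with median UMIs per barcode of 1561 in P1 labelled lung, 2964 in P1 labelled fat, 2150 in lung P2 and 5151.5 in fat P2, every barcode of at least 2000 UMIs was also thinned to 2000 UMIs. Cxcl12 was then held by 81.7% of 164 cells in P1 labelled lung, 38.4% of 1491 in P1 labelled fat, 14.1% of 778 in lung P2 and 26.1% of 7191 in fat P2. Thinned, the order of the libraries was the same as in CPM.

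Ccl21a, the lymphatic and lymph node ligand of Ccr7, separated the libraries most widely (mm10 chr4:42772860-42773993, minus strand). Its level was 969 CPM (912 to 1028) in the P1 library labelled lung, 35.9 CPM (31.5 to 40.9) in the P1 library labelled fat, 0 in lung P2 and 0.0229 CPM, a single UMI, in fat P2. The UMIs lay differently in the P1 libraries. In the P1 library labelled lung, 499 of 652 barcodes (76.5%) held Ccl21a, none held more than 10 UMIs, and 139 barcodes were needed to collect 50% of its UMIs. In the P1 library labelled fat, 4 of 1948 barcodes held it, the highest with 110 UMIs, and 2 barcodes held 50% of the total. The variance of Ccl21a counts over that of a Poisson draw with the same depths was 1.40 in the P1 library labelled lung and 84.1 in the P1 library labelled fat. All 3 barcodes with at least 5 Ccl21a UMIs in the P1 library labelled fat also carried the lymphatic endothelial genes (at least 3 UMIs from at least 2 genes of the list), against 240 of the other 1945. The 6 lymphatic genes summed to 298 CPM in the P1 library labelled lung and 816 CPM in the P1 library labelled fat, most of the second from Lyve1 at 689 CPM. Prox1, the defining lymphatic transcription factor, stood at 14.3 CPM in the P1 library labelled lung and 1.38 CPM in the P1 library labelled fat. Ccl21b had 0 UMIs everywhere and Ccl21c 1 UMI. These near-identical copies can share reads with Ccl21a, so the copy behind the Ccl21a counts is uncertain.

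The even spread was shared by the other members of that library. Among the members with at least 10 UMIs in the P1 library labelled lung, the ratio of variance to the Poisson draw lay between 0.948 and 1.40, apart from Cxcl12 at 8.58. Barcodes left out by the filter in the same library carried Ccl21a at 781 CPM, Cxcl12 at 814 CPM and Cxcl9 at 128 CPM, against 969, 1032 and 128 CPM in the kept barcodes. Other members differed more, with Cxcl14 at 40.8 CPM in the left-out and 15.2 CPM in the kept barcodes, Cxcl1 at 97.0 and 58.1 CPM, and Cx3cl1 at 17.9 and 31.3 CPM. The haemoglobin and other erythroid genes summed to 5815 CPM there, against 223 CPM in the P1 library labelled fat, and 149 of the 164 thinned cells carried them. Whether transcripts free in solution had a part in these levels was not tested. Ccl21a was found in 88.2% of 51 thinned cells with the fibroblast genes and in 46.7% of 30 without them, at median depths of 2370 and 2472.5 UMIs.

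Cxcl12 kept a concentrated fraction in the P1 library labelled lung. A single barcode held 73 of its 1154 UMIs (6.33%), and the 24 barcodes with at least 5 UMIs together held 26.3%. Artery genes (Gja5, Gja4, Bmx, Hey1, Efnb2 and Dll4) were carried by 10 of these 24 barcodes, against 48 of the other 628, at median depths of 2447 and 1544 UMIs.

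**Figure D3:**
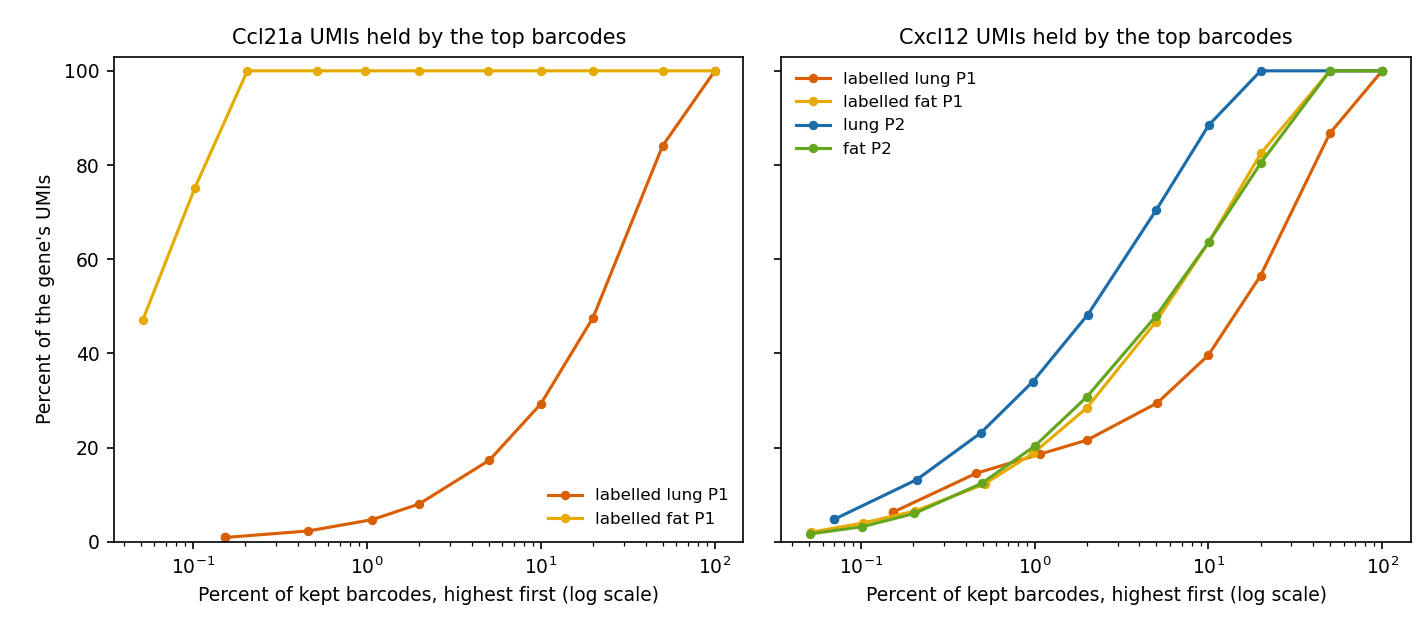
Percent of all Ccl21a (left) and Cxcl12 (right) UMIs of a library (vertical) held by the barcodes with the most UMIs of that gene, against the percent of kept barcodes counted (horizontal, log scale). In the P1 library labelled fat all 234 Ccl21a UMIs lie in 4 barcodes, while 139 barcodes hold 50% of them in the P1 library labelled lung; lung P2 and fat P2, with 0 and 1 UMI of Ccl21a, are not drawn on the left.

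Cxcl14, a homeostatic ligand abundant in skin and stroma, was the leading ligand of lung P2 (mm10 chr13:56288643-56296551, minus strand). It stood at 15.2 CPM (8.85 to 24.3) in the P1 library labelled lung, 4.45 CPM (2.98 to 6.40) in the P1 library labelled fat, 670.4 CPM (645 to 697) in lung P2 and 177 CPM (173 to 181) in fat P2. Both P2 libraries were far above both P1 libraries. In lung P2 it was found in 55.6% of barcodes and in 55.8% of thinned cells. Of the lung P2 cells with alveolar fibroblast genes (Npnt, Itga8, Inmt, Mfap4, Ces1d and Tcf21) 63.0% of 684 held Cxcl14, against 0 of 30 without them, at median depths of 3076 and 3548.5 UMIs; a count of 0 in 30 allows a share of up to 10%. In fat P2 it was found in 10.2% of thinned cells and was concentrated, with 140 of 7898 barcodes holding 50% of its UMIs.

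Cxcl13, the ligand of Cxcr5 that organises B cell follicles, was a transcript of fat P2 (mm10 chr5:95956951-95961068, plus strand). Its level was 1.79 CPM in the P1 library labelled lung, 0.154 CPM in the P1 library labelled fat, 7.22 CPM (4.80 to 10.4) in lung P2 and 238 CPM (234 to 243) in fat P2. In lung P2, 2 barcodes held 50% of its 28 UMIs, whereas in fat P2 it was found in 26.3% of barcodes, or 17.7% of thinned cells. Cxcr5 itself had between 0 and 7 UMIs in a library.

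The membrane-anchored ligands Cx3cl1 (fractalkine, which binds Cx3cr1 on monocytes and lymphocytes) and Cxcl16 (which binds Cxcr6 and scavenges lipids) were highest in the P1 library labelled fat. Cx3cl1 stood at 31.3 CPM (21.8 to 43.5) in the P1 library labelled lung, 86.8 CPM (79.8 to 94.2) in the P1 library labelled fat, 1.80 CPM in lung P2 and 4.27 CPM in fat P2. It was thus higher in both P1 libraries than in both P2 libraries. Cxcl16 was the flattest of the 16 genes, at 23.2 CPM in P1 labelled lung, 62.5 CPM in P1 labelled fat, 32.5 CPM in lung P2 and 22.1 CPM in fat P2. The receptors Cx3cr1 and Cxcr6 did not reach 20 CPM anywhere.

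Cxcl1, a ligand of Cxcr2 that draws neutrophils, was split across tissue and population as labelled. It stood at 58.1 CPM (44.8 to 74.1) in the P1 library labelled lung, 0 in the P1 library labelled fat (up to 0.461 CPM for 3 counts), 1.03 CPM (0.281 to 2.64) in lung P2 and 168 CPM (164 to 172) in fat P2. It was high in 1 library of each population and in 1 library of each tissue as labelled. With the tissue labels of the P1 libraries exchanged, it would be high in both fat libraries and low in both lung libraries. In fat P2 it was found in 21.5% of barcodes and in 14.0% of thinned cells. The related Cxcl2 reached 2.96 CPM in fat P2, where 4 barcodes held 50% of its UMIs, Cxcl5 had 2 UMIs in all, and Cxcl3 had none. Cxcl15 (lungkine), a neutrophil-attracting ligand of mouse lung epithelium, stood at 5.36 CPM in P1 labelled lung, 13.4 CPM in P1 labelled fat, 105 CPM in lung P2 and 0.963 CPM in fat P2. In lung P2 all 13 barcodes with at least 5 Cxcl15 UMIs carried epithelial genes, against 114 of the other 1423, and they held 76.2% of its UMIs. In the P1 library labelled fat a single barcode held 64.4% of them. The filter lowered Cxcl15, which stood at 641 CPM in the left-out barcodes of lung P2 and 92.9 CPM in those of P1 labelled fat.

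Promoter letters are shown for Cxcl1 and its neighbours Cxcl2 and Cxcl3, because Cxcl1 was found more often in fat P2 cells with NF-kB response genes. The 3 genes lie near each other on chromosome 5, and the windows below come from the 250 bases before each RefSeq start (GRCm38.p6, plus strand). Capitals mark the letters GGGANTTTC, the core of a common NF-kB site, searched on both strands. The match begins 71 bases before the start in Cxcl1, 97 in Cxcl2 and 73 in Cxcl3. The windows are chr5:90891149-90891207, chr5:90903777-90903835 and chr5:90786003-90786061.
Cxcl1: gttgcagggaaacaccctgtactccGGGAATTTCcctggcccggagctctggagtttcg
Cxcl2: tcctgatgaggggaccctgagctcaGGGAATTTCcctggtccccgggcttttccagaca
Cxcl3: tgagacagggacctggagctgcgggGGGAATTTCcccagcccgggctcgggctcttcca
All 3 share the run GGGAATTTC. Of 32851 promoters of this length, 0.941% hold a match to the motif, and 6 of 50 member promoters do (those of Cxcl1, Cxcl2, Cxcl3, Cxcl9, Ccr3 and Cxcr2). The 50 promoters come from 43 symbols matched by name, some with more than 1 start, against 42 members with a promoter. Only 10 of the 16 genes at 20 CPM or more had a promoter. Those of Ccl2, Ccl7, Ccl11, Ccl5, Cxcl16 and Ccr7 were lacking and were not searched. A match is a description of the letters and no evidence of binding. Cxcl2 and Cxcl3 carry the same run and stood at 2.96 CPM and 0 in fat P2, against 168 CPM for Cxcl1. These are 3′ counts, which compare the same gene between libraries more directly than different genes.

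The interferon-induced ligands of Cxcr3, Cxcl9 and Cxcl10, did not follow one pattern. Cxcl9 stood at 128 CPM (108 to 151) in the P1 library labelled lung, 0.154 CPM in the P1 library labelled fat, 0 in lung P2 and 10.7 CPM (9.76 to 11.7) in fat P2. Cxcl10 stood at 28.6 CPM (19.6 to 40.4) in the P1 library labelled lung, 0.614 CPM in the P1 library labelled fat, 0.515 CPM in lung P2 and 60.3 CPM (58.0 to 62.7) in fat P2. Cxcl9 was high in the P1 library labelled lung alone, with a lower level in fat P2, whereas Cxcl10 passed 20 CPM in both and was highest in fat P2. Both were under 1 CPM in the other libraries. The genes lie 18.6 kb apart on the minus strand of chromosome 5 (mm10). Their receptor Cxcr3 had at most 6 UMIs in a library. Their promoter letters are shown because both are known interferon targets and differed in their order across libraries: a 59-base window of Cxcl9, chr5:92328200-92328258, and the 250 bases of Cxcl10, chr5:92348890-92349139 (RefSeq, GRCm38.p6, minus strand). Capitals mark matches on either strand to GAAANNGAA, the core of the interferon-stimulated response element, to GGGANTTTC and to TGANTCA, the AP-1 site.
Cxcl9: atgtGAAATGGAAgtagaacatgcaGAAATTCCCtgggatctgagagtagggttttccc
Cxcl10: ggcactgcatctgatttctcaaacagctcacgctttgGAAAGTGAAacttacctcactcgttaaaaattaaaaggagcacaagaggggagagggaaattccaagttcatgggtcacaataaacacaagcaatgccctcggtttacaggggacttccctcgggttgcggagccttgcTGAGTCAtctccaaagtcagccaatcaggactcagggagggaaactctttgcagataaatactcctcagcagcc
The match to GAAANNGAA begins 175 bases before the start in Cxcl9 and 213 bases before it in Cxcl10. Such a match describes the letters and is no evidence of binding. Cxcl9 holds a match to GGGANTTTC at 154 bases and Cxcl10 a match to TGANTCA at 74 bases. Other spellings of an NF-kB site were not searched, so the missing GGGANTTTC match does not show that Cxcl10 lacks such a site. Of all promoters, 7.13% hold the interferon letters and 6.75% the AP-1 letters, against 8 and 6 of the 50 member promoters. The member promoters with the AP-1 letters include those of the near-identical copies Ccl27a and Ccl27b.

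The CC ligands that draw monocytes and eosinophils were transcripts of fat P2. Ccl11 (eotaxin, the ligand of Ccr3) stood at 14.3 CPM (8.18 to 23.2) in the P1 library labelled lung, 0 in the P1 library labelled fat, 20.6 CPM (16.3 to 25.7) in lung P2 and 486 CPM (480 to 493) in fat P2. It was found in 72.0% of fat P2 barcodes and 53.3% of thinned fat P2 cells. Among thinned fat P2 cells, 53.9% of the 7113 with fibroblast genes held it and 1 of 26 without them (3.85%), at median depths of 5424 and 4421.5 UMIs. Ccl2, a ligand of Ccr2, stood at 1.79 CPM in the P1 library labelled lung, 0 in the one labelled fat, 7.73 CPM in lung P2 and 59.6 CPM (57.3 to 61.9) in fat P2. Ccl7, which shares that receptor, had 0.894 CPM in P1 labelled lung, 0 CPM in P1 labelled fat, 5.93 CPM in lung P2 and 58.5 CPM in fat P2. Fat P2 was highest for all 3 genes, and the P1 library labelled fat had none of their UMIs. Ccl2 and Ccl7 were held by few cells. In fat P2, 57 barcodes carried 50% of the Ccl2 UMIs (highest 171 in 1 barcode) and 96 carried 50% of those of Ccl7, against 1233 for Ccl11. In lung P2 a single barcode held 70.0% of the Ccl2 UMIs and a single barcode 56.5% of those of Ccl7. Ccl2, Ccl7 and Ccl11 follow each other on the plus strand of chromosome 11, from 82035571 to 82062955 (mm10), with gaps of 8.26 kb and 10.3 kb. Ccl8, a further gene of this group, reached 12.3 CPM in fat P2 and at most 2.84 CPM elsewhere.

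Ccl5 (RANTES), a ligand of T cells and NK cells, was a transcript of few barcodes. Its level was 0 in the P1 library labelled lung, 21.0 CPM (17.7 to 24.9) in the P1 library labelled fat, 13.4 CPM (10.0 to 17.6) in lung P2 and 17.04 CPM (15.8 to 18.3) in fat P2. These intervals are too narrow as a measure of the sorted population, since 3 barcodes held the UMIs in the P1 library labelled fat and 1 in lung P2. Within P1 labelled fat, both barcodes with at least 5 UMIs carried T or NK genes, as did the 1 barcode of lung P2. In fat P2, 16 barcodes held 89.2% of its UMIs, and 0 of these carried T or NK genes, against 2 of the other 7882. Adventitial fibroblast genes were carried by 8 of the 16 barcodes (50%) and 98.8% of the others, and NF-kB response genes by 13 (81.3%) and 41.1% of the others, at median depths of 3275 and 5157.5 UMIs. Ccl5 and Ccr7 were held together by 13 thinned fat P2 cells, where the product of their shares gives 0.105. Ccl3 and Ccl4, inflammatory CC ligands, reached 11.4 and 14.0 CPM in the P1 library labelled fat, of which a single barcode held 91.9% and 83.5%. Ccl4 reached 18.8 CPM in the P1 library labelled lung, with no barcode above 1 UMI.

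Cxcr4, the receptor of Cxcl12, was the main receptor of 2 libraries (mm10 chr1:128588199-128592293, minus strand). It stood at 23.2 CPM (15.2 to 34.1) in the P1 library labelled lung, 54.4 CPM (48.9 to 60.3) in the P1 library labelled fat, 14.7 CPM (11.1 to 19.0) in lung P2 and 1.63 CPM (1.27 to 2.05) in fat P2. It supplied 85.7% of receptor UMIs in the P1 library labelled fat and 80.3% in lung P2. Ccr7, the receptor of Ccl21a, stood at 33.1 CPM (23.3 to 45.6) in the P1 library labelled lung, 0.614 CPM in the P1 library labelled fat, 0 in lung P2 and 2.13 CPM in fat P2. It was thus highest where Ccl21a was highest, and no barcode of that library held more than 2 of its UMIs. Cx3cr1 supplied 44.3% of the few receptor UMIs of fat P2, at 4.04 CPM. It overlaps other genes on its strand, so these counts are uncertain. Receptors of some other fat P2 ligands were rare in these cells sorted as CD45-. Ccr3 (for Ccl11) had no UMI in any library, Ccr2 (for Ccl2 and Ccl7) had at most 7, and Cxcr2 (for Cxcl1) at most 11. The part of the CD45- gate in these counts was not tested.

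Of the 42 members below 20 CPM in every library, the highest was Ccl25, a ligand of gut and thymus stroma, with 5.36 CPM in the P1 library labelled lung, 18.9 CPM in the P1 library labelled fat, 15.98 CPM in lung P2 and 8.39 CPM in fat P2. Ccl27a reached 17.8 CPM in lung P2, and its near-identical copy Ccl27b had none. Cxcl17 reached 12.5 CPM in the P1 library labelled lung. Ccl19, the other ligand of Ccr7, stayed at or under 1.55 CPM.

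The first comparison set P1 against P2 within lung as labelled. Ratios are log2 after adding 10 CPM to both levels, a gene counted as measured at 20 CPM or more in either library, and 4-fold means a log2 ratio of 2 or more, or -2 or less. Plain folds are ratios of CPM with exact 95% intervals for counting error. Of the 12 measured members, 5 were 4-fold or more higher in P1 (Ccl21a, Cxcl9, Cxcl12, Cxcl1 and Ccr7), where 5.23% of 8376 genes were, and 2 were 4-fold or more lower (Cxcl14 and Cxcl15), where 7.39% were. Ccl21a was at least 1253-fold and Cxcl9 at least 165-fold higher against a bound of 3 counts in lung P2. Cxcl12 was 8.25-fold higher (7.42 to 9.20) and Cxcl14 44.1-fold lower (27.5 to 75.8). The median log2 ratio was 1.84 over the measured members and -0.16 over all measured genes. Members enter this median through the library where they are high, so it describes them and supports nothing. Cxcl10 (log2 ratio 1.88) and Cx3cl1 (1.81) stayed just under the 4-fold rule. By the same rule 7 of 7 endothelial genes, 4 of 4 measured erythroid genes and 5 of 6 immediate early genes, which respond to stress and cell isolation, were higher in P1, and 5 of 6 fibroblast genes were lower. The part of the erythroid and immediate early genes in the member ratios was not tested.

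Within fat as labelled, more ligands were lower in P1 than higher. Of the 13 measured members, 3 were 4-fold or more higher in P1 (Cx3cl1, Cxcr4 and Ccl21a), beside 8.02% of 8143 genes, and 7 were 4-fold or more lower (Ccl11, Cxcl13, Cxcl1, Cxcl14, Ccl2, Ccl7 and Cxcl10), beside 6.85%. Ccl11 was at least 1055-fold lower and Cxcl1 at least 364-fold lower in P1. The Ccl21a ratio, 2.20 on the log2 scale, rests on 4 barcodes and fell under the 4-fold rule with all deposited barcodes, at 1.989. Cxcr4 was 33.4-fold higher (25.8 to 43.7) and Cx3cl1 20.3-fold higher (17.2 to 24.1). Cxcl12 was 2.31-fold higher in P1 (2.23 to 2.40), and Ccl5 differed by a log2 ratio of 0.20. The median log2 ratio of the measured members was -2.73, and that of all genes 0.34. By the same rule 7 of 7 endothelial genes were higher in P1, and 6 of 6 fibroblast genes and 5 of 6 immediate early genes were lower. With TMM scaling (edgeR) the median of all genes was 0.0011 in place of 0.34, and higher genes made up 44.4% of all genes past 4-fold in place of 53.9%. Under that scaling Ccl5 stood at -0.05 and Cxcl12 at 0.81.

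Between the P1 libraries, 4 of 10 measured members were 4-fold or more higher in that labelled lung (Ccl21a, Cxcl9, Cxcl1 and Ccr7) and 0 lower, beside 3.51% and 3.66% of 7900 genes. Ccl21a was 27.0-fold higher (23.4 to 31.2) and Ccr7 53.8-fold higher (19.3 to 208). The log2 ratio of Ccr7, 2.02, fell just under the 4-fold rule with TMM scaling, at 1.998. Cx3cl1, Cxcl16 and Cxcr4 stood lower in the P1 library labelled lung, by 2.77-fold, 2.69-fold and 2.34-fold. The median log2 ratio was 1.32 over the measured members and -0.26 over all genes. Beside them, 5 of 6 immediate early genes, 4 of 4 measured erythroid genes and 5 of 5 measured fibroblast genes were 4-fold or more higher in the same library, and their part in these ratios was not tested. All 4 directions turn over by construction when the tissue labels of the P1 libraries are exchanged, since this swaps the 2 sides of the ratio.

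In P2, which the tissue genes did not contradict, lung and fat differed mostly by ligands that were lower in lung. Of 10 measured members, 1 was 4-fold or more higher in lung (Cxcl15), beside 5.06% of 7920 genes, and 5 were 4-fold or more lower (Cxcl1, Ccl11, Cxcl13, Cxcl10 and Ccl7), beside 2.9%. Cxcl15 was 109-fold higher (79.3 to 154). Cxcl1 was 163-fold lower (63.6 to 598), Cxcl13 33.0-fold lower (22.8 to 49.7) and Ccl11 23.6-fold lower (18.9 to 29.8). Cxcl14 was 3.80-fold higher in lung (3.63 to 3.97), and Cxcl12 2.08-fold lower (1.90 to 2.28). The median log2 ratio was -2.04 over the measured members and 0.20 over all genes. With TMM scaling, 6 of 11 measured members rather than 5 of 10 were 4-fold or more lower, the added one being Ccl2 at -2.24. Under that scaling 329 of 7997 genes were lower, in place of 230 of 7920. Higher genes made up 49.0% of all genes past 4-fold in place of 63.5%. Beside Cxcl15, 3 of 5 measured epithelial genes were higher in lung by the same rule, and beside Cxcl1, 5 of 6 immediate early genes were lower. Their part in these ratios was not tested.

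Within a library, members were set against genes of other lists in cells thinned to 2000 UMIs, between cells with at least 3 UMIs from at least 2 list genes and cells with none. The pairs named here were chosen after their values were seen. Cxcl12 in the P1 library labelled fat differed with capillary genes. It was found in 50.4% (47.3 to 53.5) of 1022 cells with general capillary genes (Gpihbp1, Plvap, Aplnr and Kit) and in 4.28% of 327 without them. Artery genes were carried by 605 thinned cells (40.6%), with 555 cells between left out, so this list does not single out a small group. Cxcl12 was found in 55.7% of the 605 cells and in 12.1% of 331 without artery genes. With capillary aerocyte genes (Car4, Ednrb, Apln, Tbx2 and Fibin), which mark the gas-exchange capillary cells of the lung, the order turned round, with 8.74% of 412 cells and 50.7% of 741. Cxcr4 ran the same way as its ligand, in 15.2% of cells with artery genes and 1.81% without, and in 1.94% of cells with aerocyte genes and 11.1% without. Cxcl16 ran the other way, in 16.7% of cells with aerocyte genes and 9.04% without. The median depths were 3305 and 4049 UMIs for the general capillary split, 3202 and 4251 for the artery split and 4250 and 3352 for the aerocyte split. Cx3cl1 and Cxcr4 were found together in 30 cells, where the product of their 2 shares gives 18.0 cells.

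In lung P2 the ligands were found with different fibroblast genes. Cxcl12 was found in 28.2% (22.8 to 34.1) of 259 cells with adventitial fibroblast genes (Dcn, Scara5, Col14a1, Lum, Dpt and Clec3b) and in 5.26% of 190 without them, at median depths of 3437 and 3022 UMIs. Ccl11 was found in 6.95% and 0.526% of the same cells. Cxcl14, in contrast, was rarer beside Ccl11, with 2 cells holding both where the product of shares gives 10.6, and beside Cxcl12, with 41 cells against 61.4. Ccl11 and Cxcl12 were found together in 13 cells against 2.69. Cxcr4 was found in 8 of 40 cells (20%, interval 9.05 to 35.6) with mural genes, which mark pericytes and smooth muscle, and in 1 of 607 without them (0.165%), at median depths of 2883 and 3100 UMIs. Cxcl15 was found in 31.7% of 41 cells with epithelial genes and in 1.48% of 203 without, at median depths of 3131 and 3706 UMIs. Sftpc, an epithelial gene itself, was found in 87.0% of lung P2 barcodes, and the part of free transcripts in such shares was not tested.

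In fat P2 the ligands differed with the genes of adipose progenitor stages. Cxcl13 was found in 21.6% (20.5 to 22.7) of 5233 cells with interstitial progenitor genes (Pi16, Dpp4, Sema3c, Cd55, Anxa3 and Wnt2) and in 6.57% of 913 without them. Cxcl12 ran the other way, with 18.9% and 46.5%, as did Cxcl14 with 4.47% and 25.5% and Cxcl1 with 10.5% and 23.5%. Cells with committed preadipocyte genes (Col4a1, Col4a2, Col15a1, Sparcl1, Lpl and Pparg) held Cxcl12 in 38.7%, Cxcl14 in 22.4% and Cxcl1 in 22.7%, against 14.1%, 1.73% and 6.91% without those genes. Cells with regulatory stroma genes (F3, Clec11a, Fmo2, Mgp, Cygb and Gdf10) held Cxcl12 in 53.2% of 1129 cells and Cxcl14 in 28.1%, against 16.3% and 3.26% of 3653 without. Ccl11 varied little along these lists, at 51.0% with and 59.3% without the interstitial progenitor genes. The cells of these splits had close depths, with medians of 5463 and 5308 UMIs for the interstitial list and 5312 and 5389 for the regulatory list.

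**Figure D4:**
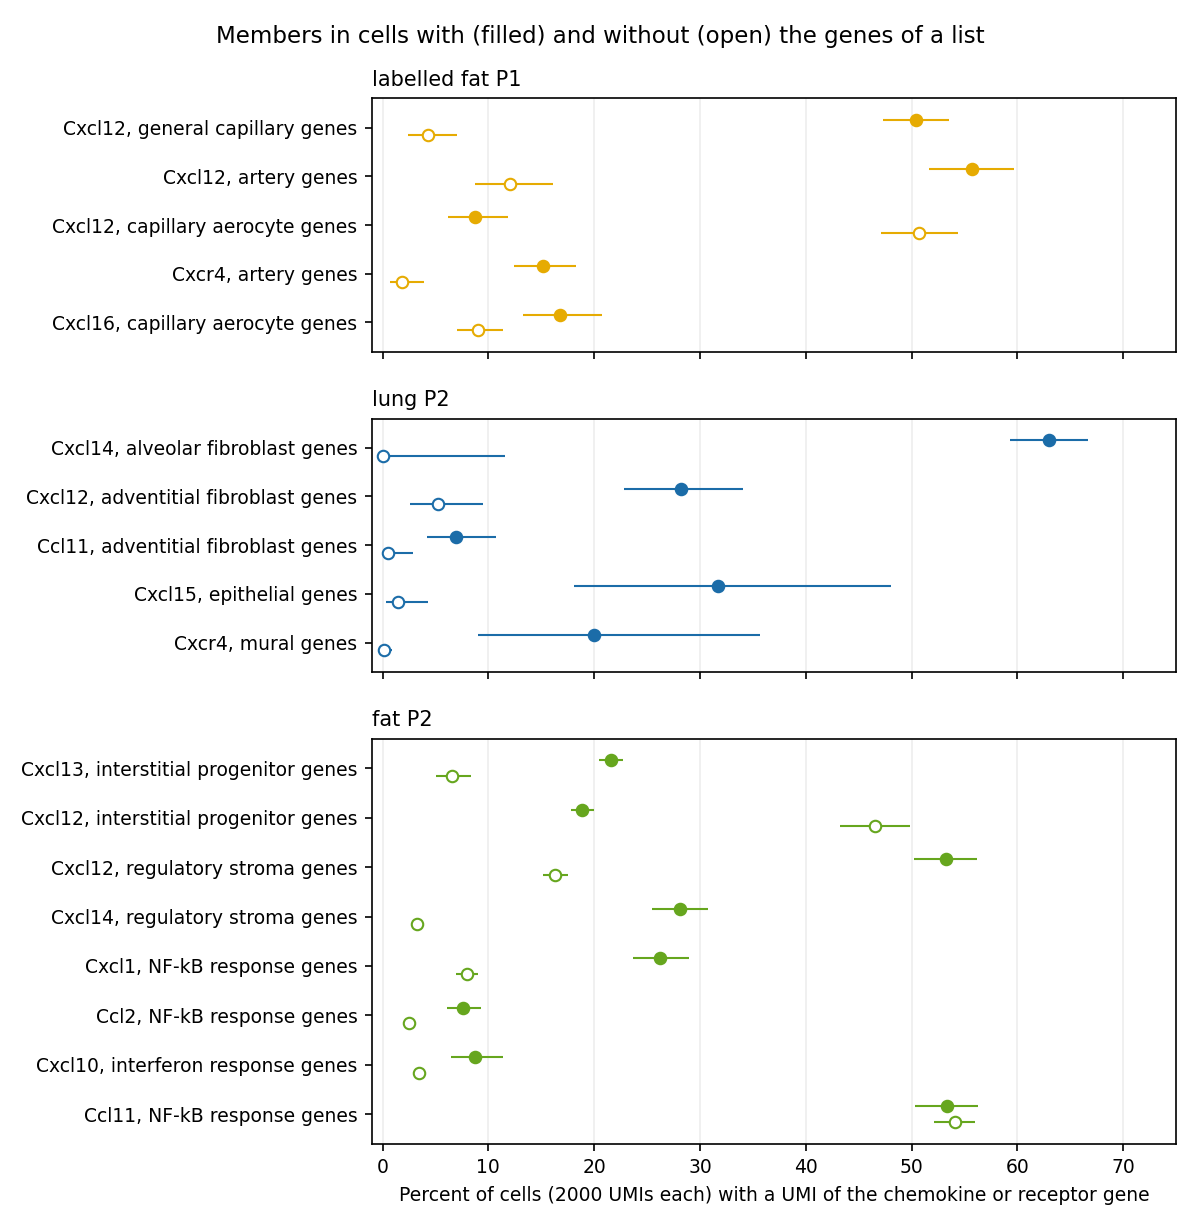
Percent of cells thinned to 2000 UMIs that held a UMI of the member (horizontal), in cells with (filled) and without (open) genes of the list named, with exact 95% Clopper-Pearson intervals, for pairs chosen after their values were seen. Cxcl12 lies at 50.4% with and 4.28% without general capillary genes in the P1 library labelled fat, and at 18.9% with and 46.5% without interstitial progenitor genes in fat P2.

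Some fat P2 ligands also differed with the genes of cell responses. Whether these splits are separate from those by progenitor stage genes was not tested. Cxcl1 was found in 26.3% (23.7 to 29.0) of 1093 cells with NF-kB response genes (Nfkbia, Nfkbiz, Tnfaip3, Icam1, Il6 and Zc3h12a) and in 7.95% (6.95 to 9.04) of 2680 without them. Ccl2 was found in 7.59% and 2.54%, Ccl7 in 8.87% and 4.14%, and Cxcl10 in 7.502% and 2.87% of the same cells. Ccl11 was found in 53.3% (50.3 to 56.3) and 54.1% (52.2 to 56.0), with overlapping intervals. Median depths were 5630 UMIs with and 5097.5 without. Beside interferon response genes Cxcl10 was found in 8.70% of 563 cells, against 3.44% of 4329 without. Immediate early genes were carried by 6680 of 7191 thinned cells, of which 15.1% held Cxcl1, against 0 of 126 without them, which allows a share of up to 2.38%.

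The same ligands were found together. Ccl2 and Ccl7 were held by 60 fat P2 cells, where the product of their shares gives 19.7, a ratio of 3.05. Ccl2 and Cxcl1 were held by 98 cells against 46.0, and Ccl2 and Cxcl10 by 29 against 14.3. For Ccl7 and Cxcl1 the ratio was 1.70. Cxcl9 and Cxcl10 were held by 9 cells against 2.66, while in the P1 library labelled lung 0 of 164 cells held both, against 2.15. In fat P2, Cxcl12 and Cxcl14 were held by 303 cells against 192, whereas Cxcl13 and Cxcl14 were held by 81 against 130. Cells of 1 library share their source, so these counts are descriptions.

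**Figure D5:**
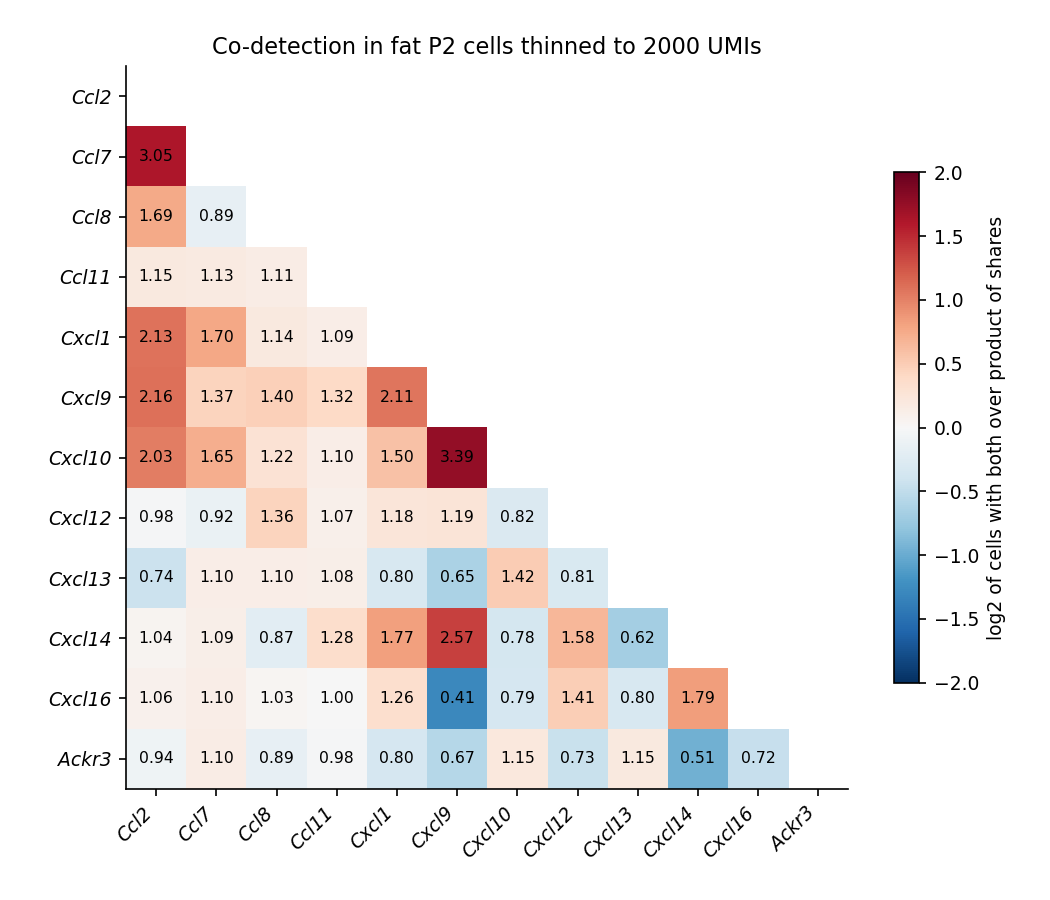
Number of fat P2 cells thinned to 2000 UMIs that held both genes, divided by the number given by the product of the 2 shares (written in each square and coloured on a log2 scale), for 11 ligands and the atypical receptor Ackr3. The pair Ccl2 and Ccl7 stands at 3.05, and Ackr3 and Cxcl14 at 0.51.

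The wider pathway was read through 29 genes in 5 lists, of which 25 reached 20 CPM in some library. The atypical receptors take up chemokines without driving migration, and the 3 of 5 genes measured in P2 were all 4-fold or more lower in lung. Beside them stood 2.9% of 7920 genes. For P1 over P2 in lung as labelled, 2 of 3 measured were higher (5.23% of all genes) and 0 lower (7.39%). In fat as labelled, 1 of 5 was higher (8.02%) and 2 lower (6.85%). Between the P1 libraries, 1 of 5 was higher in that labelled lung (3.51%) and 1 lower (3.66%). Ackr3, which binds and removes Cxcl12, stood at 134 CPM in the P1 library labelled lung, 69.1 CPM in the one labelled fat, 24.5 CPM in lung P2 and 603 CPM in fat P2. Fat P2 was highest, and 55.9% of its thinned cells held Ackr3. It was found in 71.7% of cells with interstitial progenitor genes and 10.1% without, the reverse of Cxcl12 and Cxcl14. In fat P2, Ackr3 and Cxcl12 were held together by 771 cells against 1049 from the product of shares, and Ackr3 and Cxcl14 by 210 against 411. Elsewhere Ackr3 and Cxcl12 were held by 26 cells against 35.1 in P1 labelled lung, 56 against 52.9 in P1 labelled fat and 7 against 1.98 in lung P2. Ackr3 and Cxcl14 were held by 2 against 7.81 in lung P2. Among P1 cells labelled fat, Ackr3 was found in 43.6% of 55 cells with large vein genes and 7.97% of 1192 without.

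Ackr1, which binds many inflammatory chemokines on venules, had 49.2 CPM in P1 labelled lung, 0.154 CPM in P1 labelled fat, 0.515 CPM in lung P2 and 59.0 CPM in fat P2. Ackr2, a scavenger of inflammatory CC ligands, had 2.68 CPM in P1 labelled lung, 83.3 CPM in P1 labelled fat, 3.35 CPM in lung P2 and 51.2 CPM in fat P2. Ackr4, a scavenger of Ccl19, Ccl21 and Ccl25, had 1.79 CPM in P1 labelled lung, 28.3 CPM in P1 labelled fat, 0.773 CPM in lung P2 and 6.15 CPM in fat P2. Ackr1 was thus high where Ackr2 was low in the P1 libraries, and both were high in fat P2. Ackr4 was found in 8.81% of cells with general capillary genes and in 0 of 327 without them in the P1 library labelled fat, which allows a share of up to 0.917%. Ccrl2, which holds chemerin at the cell surface, had 23.2 CPM in P1 labelled lung, 93.4 CPM in P1 labelled fat, 15.98 CPM in lung P2 and 3.62 CPM in fat P2. Rarres2, which encodes chemerin, had 102.8 CPM in P1 labelled lung, 10.6 CPM in P1 labelled fat, 579.9 CPM in lung P2 and 1142 CPM in fat P2. Its receptor gene Cmklr1 had 8.94 CPM in P1 labelled lung, 5.68 CPM in P1 labelled fat, 246 CPM in lung P2 and 13.9 CPM in fat P2. Dpp4, a protease that trims Cxcl12 and other chemokines, had 3.58 CPM in P1 labelled lung, 209.5 CPM in P1 labelled fat, 11.1 CPM in lung P2 and 559 CPM in fat P2. Of the 10 signalling genes that serve chemokine receptors, 6 or 7 were measured in each comparison and no more than 2 differed 4-fold or more.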

How the data were processed

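RNA of sorted cells was counted in 4 droplet libraries (10x Genomics). Per the submitters' processing notes the authors used Cell Ranger 3.1.0 with mm10, and they deposited UMI counts per gene and barcode, which were used as deposited. Gene entries sharing a symbol were summed. Barcodes with 1000 UMIs, 500 genes and at most 10% mitochondrial UMIs were kept, at a depth of 1118642 to 43599072 UMIs per library, where 3 counts equal 2.68 to 0.0688 CPM. No count test was run, since each group has 1 library. Members were described by CPM and by a 4-fold rule, with 10 CPM added and a minimum of 20 CPM. Within libraries, cells thinned to 2000 UMIs were split by gene lists needing 3 UMIs from 2 genes. Named genes are members at 20 CPM in any library. Doublets were kept, and removed in an alternative by Scrublet scores (scanpy 1.11.5). Scripts used Python 3.11.15, numpy 2.4.6 and scipy 1.17.1, with edgeR 4.0.16 for TMM factors alone, and were tested on simulated counts. Promoters came from RefSeq for 42 of 58 members. Motif letters were set after values were seen. The members and lists were chosen with earlier results of these data known.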

Additional observations from a re-analysis of the deposited data

Results flagged for a closer look

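With the P1 libraries as labelled, Cxcl1 moved in opposite directions in the 2 tissues and in the 2 populations. The log2 ratio of P1 over P2 was 2.63 in lung as labelled and -4.15 in fat as labelled. The log2 ratio of lung over fat was 2.77 in P1 as labelled and -4.01 in P2. The difference between these ratios was not tested, since each group has 1 library. With the P1 libraries exchanged, the ratio of P1 over P2 in lung was -0.14 and that of lung over fat in P1 was -2.77. For P1 over P2 in fat, the exchange sets 58.1 CPM against 168 CPM, so P1 was below P2 there too. Lung was then below fat in both populations. The opposite directions thus rest on the tissue labels of the P1 libraries, which the tissue genes went against.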

How the results depend on the processing

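The 27 member ratios past 4-fold all stayed past it with 1 CPM added, with a minimum of 5 CPM or none, with the highest Scrublet scores removed, with the mean of CPM per cell, and without barcodes holding a Ptprc UMI; 26 did with TMM scaling, where Ccr7 for lung over fat in P1 stood at 1.998, and with all deposited barcodes, where Ccl21a for P1 over P2 in fat stood at 1.989. Exchanging the P1 libraries kept 10 of 21. It turned the ratio of Cxcl1 for P1 over P2 in lung to -0.142, and those for lung over fat in P1 to -4.413 for Ccl21a, -2.021 for Ccr7, -2.768 for Cxcl1 and -3.763 for Cxcl9. The sign changes for lung over fat in P1 follow by construction. The exchange left 3 of 9 measured members higher in P1 in lung, beside 448 of 8335 genes. For lung over fat in P1 it left 0 of 10 higher and 4 lower, beside 289 and 277 of 7900 genes. With 1 CPM added and the libraries as labelled, 1 of 10 members was lower there. Beside it stood 518 of 7900 genes, in place of 289 as reported. Medians over measured members moved with the filter. For P1 over P2 in lung the median was 3.28 with 1 CPM added, 0.429 with a minimum of 5 CPM, -0.073 with none and 0.772 exchanged. In fat it was -5.025, -0.184, 0.044 and -0.408 under the same settings, and -1.496 with the mean of CPM per cell. For lung over fat in P1 it was 2.489 with 1 CPM added, -0.022 with no minimum and -1.317 exchanged, and in P2 -2.948 with 1 CPM added, -0.896 with a minimum of 5 CPM and -0.02 with none. The lower minimums add genes near 0 in both libraries by construction, and the exchange reverses the sign for lung over fat in P1 by construction. The cause of the other shifts was not tested. Of member shares, 14 reached 10% of cells at 2000 UMIs and 8 at 1000 UMIs. No paired analysis was possible because each group has 1 library and the labels carry no replicate numbers.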
